A study of Mus musculus with 16 samples.

Results

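The 969 microarray probes described here lie on mouse chromosome 6 and gave a signal well above background on all 16 arrays of a study of embryonic stem (ES) cells and induced pluripotent stem (iPS) cells. They were taken from 2312 chromosome 6 probes on the array, represent 674 genes, and make up part of the 19931 of 41174 probes that passed the same detection filter in the whole series. The level of a probe is the log2 of its background-subtracted signal minus the 75th percentile of its array. The difference of a line is its level minus the mean of the other 14 ES and iPS lines. The probes were chosen by position and detection, and the 2 stretches described below were chosen from the measured TT2 differences, since the rule asked for a stretch with lower levels in the ES line TT2 and for the place where it ends. The TT2 differences are therefore a description of 1 array and carry no test.

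The study asked whether a human artificial chromosome (HAC), a small vector that is kept apart from the host chromosomes, can reprogramme mouse embryonic fibroblasts (MEFs) and then be lost. MEFs of C57BL/6 origin gave 1 array. The ES group had 2 arrays, B6ES of the C57BL/6 strain and TT2 of a C57BL/6 x CBA F1 embryo. The iPS line 20D17 was made with retrovirus vectors from C57BL/6 x DBA cells and gave 1 array. The remaining 12 arrays were iPS clones from C57BL/6 MEFs. The clones 1-A3, 1-B, 1-C3 and 1-D6 carried iHAC1, with 2 copies each of the 4 factors Klf4, c-Myc, Sox2 and Oct4. The study described the iHAC1-iPS cells as only partially reprogrammed. The clones 2-B1, 2-C6, 2-E and 2-N carried iHAC2, which adds 2 more copies of Oct4 and a cassette that knocks down p53. The iHAC-free lines had lost the vector: F-B1 came from 2-B1, F-C5 from 2-C6, F-E4 from 2-E and F-N7 from 2-N. ES and iPS cells were grown on feeder layers of mitomycin C-treated ICR MEFs, so RNA of feeder cells can be part of each sample. Every line is 1 clone with 1 array, and TT2 was the only line of its strain, so strain and line cannot be told apart.

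Mouse chromosome 6 carries genes with roles in pluripotent cells, among them a cluster in its distal part that holds Dppa3 and Gdf3, and it also carries the Hoxa cluster, an imprinted domain around Peg10 and Sgce, and the metabolic genes Gapdh, Tpi1 and Ldhb. A level that shifts in the same direction over many neighbouring genes is a pattern along the chromosome and not of a pathway, and such patterns are read from the median over many probes, since single genes vary between lines for many reasons. In a bulk sample, fewer cells of a type and less RNA per cell cannot be told apart.

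The probes around the point where the TT2 differences changed are shown first, since the description turns on them. Each is a 60-base oligonucleotide, of which the first 30 bases are given 5′ to 3′ in lower case as the array file lists them. All positions are in the mm9 build, and the gene lies on the minus strand in each case except Arl6ip5 and Ppp4r2. Whether a probe lies in a coding exon or a UTR was not determined here. The placements of the probes of Foxp1, Eif4e3 and Ppp4r2 shown here are longer than the probe itself. Both probes of Suclg2, lowest in TT2 of the 15 lines, lie at chr6:95424712-95424771 and chr6:95519645-95519704. The last probe before the boundary, of Eif4e3, lies at chr6:99576992-99582254 and the first after it, of Rybp, at chr6:100179027-100179086.
Suclg2, distal probe: aactttgatgacaatgctgagttccgacaa
Eogt: cagacttgatatatgtgtttgttaactgta
Arl6ip5: ctatcacttgggcacctgtttgatgtgcag
Foxp1: tttacaggcttccatggctgagaatagtat
Eif4e3, last probe before the boundary: aaaccccatgaagagcatcatgcttttgaa
Rybp, first probe after the boundary: aatggagctgaacagtttctaacgcgcaag
Ppp4r2, first probe: gtgttatgtttcctggaaactcaccaaact

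On each array 54.2% to 65.8% of all probes were well above background, and no probe was saturated. The 8 measured pluripotency markers (of 10 listed) were all above background in TT2 and B6ES, with median levels of 3.31 and 3.04. They were also all above background in each iPS line except 1-A3, with 5 of 8 and a median level of -2.78, and 1-D6, with 6 of 8 and -1.89. In MEF 3 of 8 were above background, with a median level of -7.03. The 11 fibroblast markers were above background on every array, with a median level of 4.27 in MEF, 0.53 in B6ES and 1.99 in TT2, and between 1.04 and 3.77 in the iPS lines. The arrays lay on 4 slides, with B6ES, TT2, 20D17 and 1-D6 on 1 of them. Slides 1 and 2 were scanned in another session than slides 3 and 4, so the session and the group cannot be told apart where iHAC2-iPS or iHAC-free lines are set against ES or iHAC1-iPS.

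TT2 was lower than the other lines over the proximal part of chromosome 6 and higher over the distal part. A least-squares change point placed the boundary between 99582254 and 100179027. The 594 members before it, of 423 genes, had a median TT2 difference of -0.33, which is 79.4% of the mean of the other lines. The 375 members after it, of 251 genes, had a median of 0.19, or 114%. The other 14 lines had proximal medians from -0.13 in F-B1 to 0.18 in 1-D6, with a mean of 0.025 ± 0.085 (SD, n = 14), and distal medians from -0.046 in 1-B to 0.054 in B6ES, with a mean of -0.0049 ± 0.028 (SD, n = 14). TT2 therefore lay outside the range of all other lines on both sides of this boundary, which was itself placed by the TT2 differences. Over the whole chromosome its median was -0.14, whereas on the other 18 autosomes its medians lay between -0.023 and 0.045. Among all 15 lines and those 18 autosomes the medians ran from -0.14 to 0.34, the latter being B6ES on chromosome 8.

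**Figure D1:**
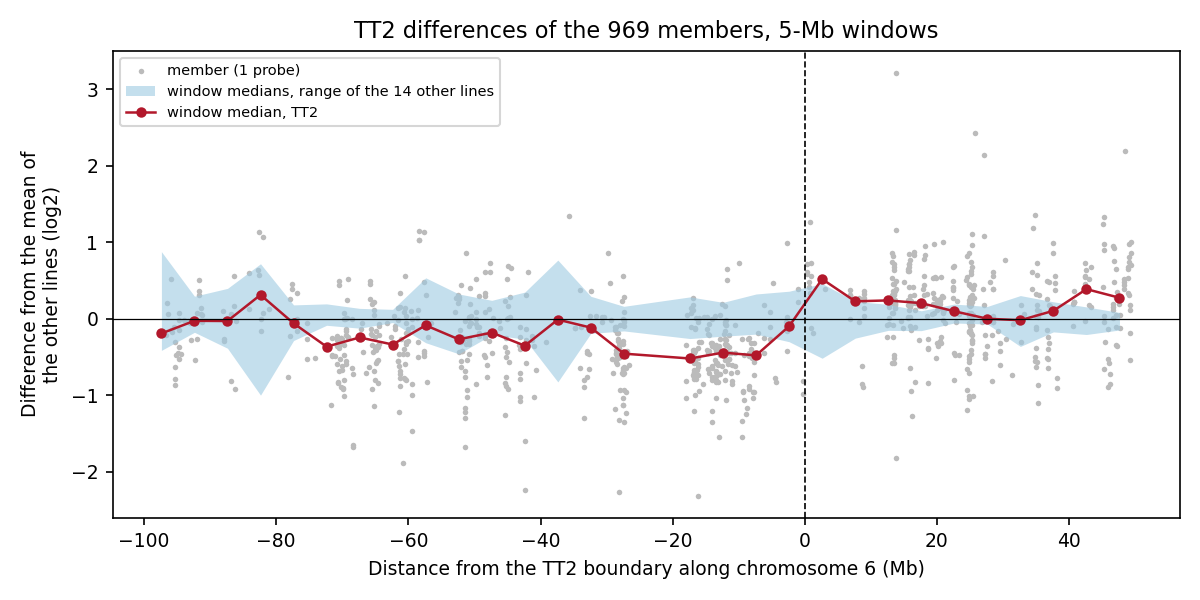
Difference of TT2 from the mean of the other lines (log2, vertical axis) for the 969 members, against distance from the TT2 boundary along chromosome 6 (Mb, horizontal axis). Grey points are probes, red points are TT2 medians of 5-Mb windows, and the blue band spans the window medians of the 14 other lines. The red line lies below the band in 8 of 19 windows before the boundary and above it in 6 of 10 after, and within it in the others.

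The shift was present in many members rather than a few. TT2 was below the mean of the other lines for 462 of 594 proximal members (77.8%) and for 126 of 375 distal members (33.6%). It was the lowest of 15 lines for 158 proximal members (26.6%) and for 8 distal members (2.13%), where 5.5% of all 19931 probes had TT2 lowest. It was the highest for 4 proximal members (0.673%) and for 73 distal members (19.5%), where 4.98% of all probes had TT2 highest. Changes of at least 2-fold were few. TT2 was at least 2-fold below the mean of the other lines for 43 proximal members (7.24%) and 7 distal members, against 2.11% of all probes, and at least 2-fold above it for 7 proximal and 13 distal members (3.47%), against 2.14% of all probes. These counts come from the contrast that the rule used, and nothing is read from them beyond their size.

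**Figure D2:**
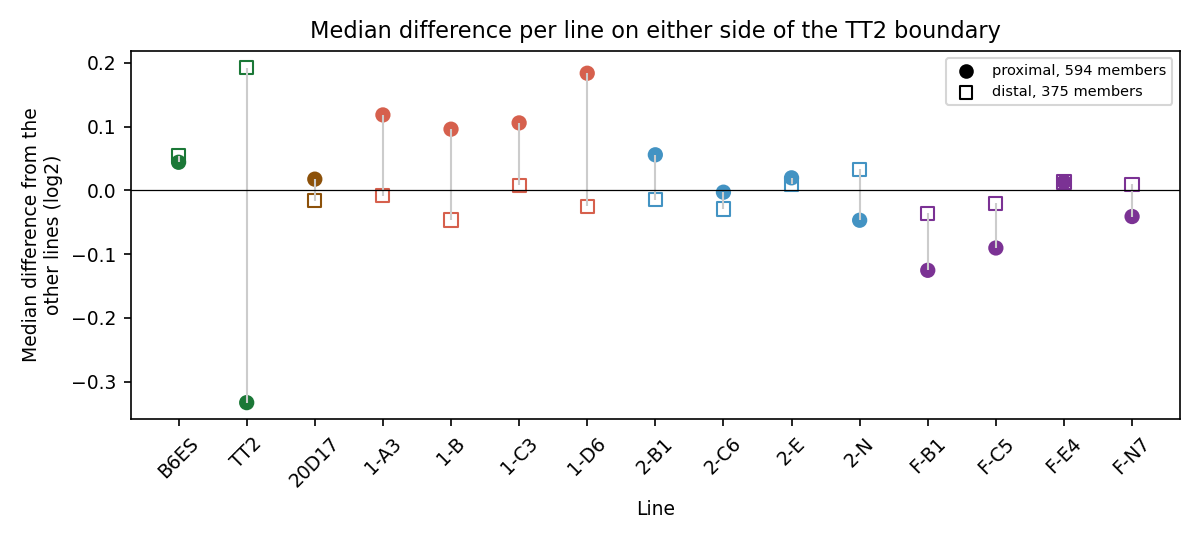
Median difference of each line from the other lines (log2, vertical axis) over the 594 proximal members (filled circles) and the 375 distal members (open squares), with lines on the horizontal axis coloured by group. TT2 has the lowest filled circle, at -0.33, and the highest open square, at 0.19, and the 4 iHAC1-iPS clones have filled circles above their open squares.

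The other lines showed much smaller steps at the same place. That place was chosen from the TT2 differences, and no other line was given a boundary of its own. A larger step in TT2 is therefore favoured by the choice, and the values are a description only. The proximal minus distal median was -0.53 in TT2 and ranged from -0.089 in F-B1 to 0.21 in 1-D6 in the other lines. It was above 0 in all 4 iHAC1-iPS clones, from 0.098 in 1-C3 to 0.21 in 1-D6, with a mean of 0.14 ± 0.047 (SD, n = 4). In the iHAC2-iPS clones it ran from -0.08 in 2-N to 0.071 in 2-B1, and it was below 0 in each of the 4 iHAC-free lines, from -0.089 in F-B1 to -0.0001 in F-E4. The iHAC1-iPS clones did not overlap the iHAC2-iPS or iHAC-free lines in this value. B6ES, the other ES line, had a step of -0.01.

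The lower levels were not even along the proximal part. In windows of 5 Mb, TT2 had the lowest median of the 15 lines in 8 of 19 windows up to 100 Mb and the highest in 6 of 10 windows after it. The first 25 Mb showed little: the TT2 medians there were -0.19, -0.03, -0.03, 0.31 and -0.06, each within the range of the other lines. From 25 to 40 Mb they were -0.36, -0.24 and -0.34, each lowest of the 15 lines. From 40 to 70 Mb they lay between -0.35 and -0.01, and the window at 55 to 60 Mb was again lowest of the 15 lines. The windows from 70 to 75 Mb and from 80 to 95 Mb had -0.46, -0.52, -0.44 and -0.48, again lowest of the 15 lines, over 62, 48, 85 and 34 members. No member lay between 75 and 80 Mb. The window at 95 to 100 Mb had -0.1 over 12 members, within the range of the other lines, and the window at 100 to 105 Mb had 0.52 over 12 members, the highest of all. From 105 to 120 Mb the medians were 0.23, 0.24 and 0.20, from 120 to 140 Mb they lay between -0.02 and 0.10, and the last windows had 0.39 and 0.27. When 3 segments were fitted in place of 2, a model added after the data had been seen, the change points fell before 70715710 and after 95519704. The 356 members of the first segment then had a TT2 median of -0.24, the 229 members of the middle segment -0.47, which is 72.3% of the other lines, and the 384 members of the last segment 0.19.

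**Figure D3:**
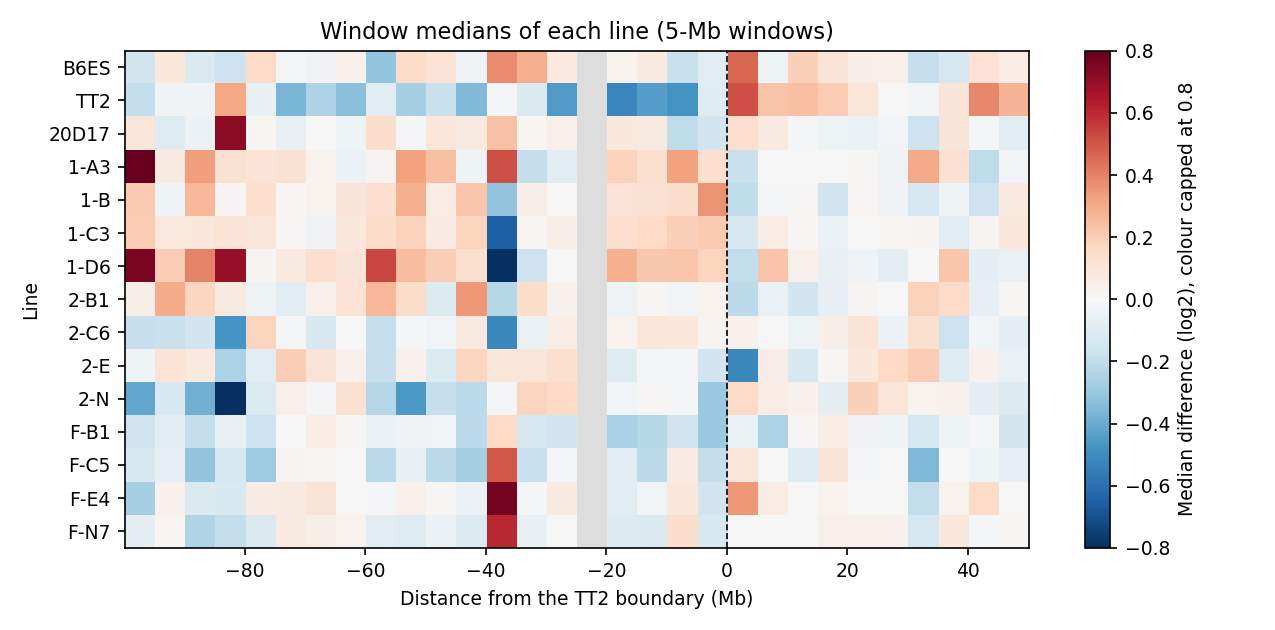
Median difference (log2, colour, capped at 0.8) of each of the 15 lines (rows) in 5-Mb windows along chromosome 6, placed by distance from the TT2 boundary (Mb, horizontal axis). Grey marks the window with no member. The TT2 row is below 0 in 18 of 19 windows up to 100 Mb and in 1 of 10 after it, where some windows are close to 0, and windows hold from 3 to 85 members.

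The members around the boundary are given in order. The 2 members of Suclg2, a subunit of the succinyl-CoA ligase of the citric acid cycle, were lowest in TT2 of the 15 lines. The probe with the more proximal position read -0.03 in TT2 and 0.29 to 1.22 in the others, and the other probe read -1.1 in TT2 and -0.99 to 0.31 in the others. The next members showed no difference of this kind. Eogt, an O-GlcNAc transferase of secreted proteins, read -0.51 in TT2 and -0.75 to -0.14 in the others, Tmf1 read -0.74 in TT2 and -1.19 to -0.36 in the others, and Uba3, a subunit of the enzyme that activates NEDD8, read 2.56 in TT2 and 2.39 to 3.05 in the others. TT2 was highest of the 15 lines for Arl6ip5, with 2.99 against 1.51 to 2.7. Foxp1, a forkhead transcription factor, read 1.16 in TT2, 1.24 in B6ES and 0.35 to 1.24 over all other lines, so TT2 lay within their range.

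Eif4e3, a relative of the cap-binding translation factor eIF4E, is the last gene before the boundary. Its 2 members read -3.41 and -2.32 in TT2, while B6ES read -3.77 and -2.57. In the 4 iHAC1-iPS clones the second probe read 0.86, -0.33, 0.42 and 0.96, which lifted the mean of the other lines, so that TT2 stood 0.81 and 0.98 below that mean although it lay above B6ES and ranked the 4th lowest of 15. When each iHAC1-iPS clone was left out in turn, the boundary moved to between 95519704 and 97061589, just after Suclg2, with 9 members between the main and the alternative position.

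After the boundary TT2 was above the mean of the other lines for most of the members shown, but not for Gxylt2 and Pdzrn3, at -0.12 and -0.19. For 1 probe Rybp, a subunit of Polycomb repressive complex 1 variants, read 3.58 in TT2, 3.56 in B6ES, 3.28 in 20D17 and 1.87 to 3.47 in the iPS clones, so TT2 and B6ES lay close together at the top. The other Rybp probe read 0.71 in TT2, below 1.29 in 2-N, 1.03 in F-N7, 1.01 in F-C5 and 0.9 in 2-E. Shq1, which assists the assembly of small nucleolar ribonucleoproteins, also had TT2 and B6ES at the top for both of its probes, with 0.11 in TT2 and 0.12 in B6ES for 1 of them. Ppp4r2, a regulatory subunit of protein phosphatase 4, was highest in TT2 for 1 probe, with 0.5 against -0.77 to 0.35. The distal rise was smaller against B6ES alone, with a median of 0.12, than against all other lines.

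The members with the largest falls in TT2 were also ones that differed between other lines. Vax2, a homeobox factor of the developing eye, had the largest fall, with a difference of -2.31, but its level of -3.16 in TT2 lay close to -3.02 in B6ES, and the 4 iHAC1-iPS clones stood at 2.5 to 2.93. Reep1, a protein that shapes the endoplasmic reticulum, was lowest in TT2 of the 15 lines at -2.43, while B6ES read -1.57, 20D17 -1.09 and the other lines up to 2.36. Kdm7a, a histone demethylase, read -0.86 in TT2 and no lower than 0 within rounding in any other line, which ran up to 1.87, so that TT2 stood 3.7-fold below their mean. Podxl, the sialomucin podocalyxin, read -2.17 in TT2, -1.43 in B6ES, -1.94 in 20D17 and -1.36 to 0.39 in the clones. Ppm1k, the phosphatase of the branched-chain ketoacid dehydrogenase, read -2.92 in TT2 and -2.46 to 0.11 in the others, and Retsat, retinol saturase, read -1.6 in TT2 and -1.17 to 0.65 in the others. Rarres2, C030015A19Rik, Nat8 and the distal member Ghrl, which encodes ghrelin, were also lowest in TT2 of the 15 lines, all at dim levels between -4.87 and -4.58.

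The largest rise was that of Tatdn2, a member of the TatD family of nucleases, which lies in the distal part. It read 1.65 in TT2, 0.53 in B6ES, 0.53 in 20D17 and -3.38 to -0.51 in the iPS clones, so TT2 stood 9.22-fold above the mean of the other lines. Vwf, von Willebrand factor, read 0.38 in TT2, -1.58 in B6ES, -0.97 in 20D17 and -5.13 to 0.12 in the clones. Rps4l, a copy of the ribosomal protein gene Rps4x whose probe could also bind near-identical copies, read 7.24 in TT2 and 7.32 in B6ES, so its difference of 2.2 came with the low levels of the iHAC1-iPS clones. Dusp16, a MAP kinase phosphatase, was highest in TT2 at 0.67, with 0.44 in 20D17 and -1.11 to -0.08 in B6ES and the clones. The last of the 5 largest rises, at 1.34, lay in the proximal part and was that of NAP103337-1, a probe without a gene symbol. It read -0.67 in TT2, -0.08 in B6ES and -4.33 to -0.45 in the remaining lines.

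All 6 proximal members among the ribosomal and translation genes had a TT2 difference below 0, with a median of -0.61. Pcbp1, a poly(rC)-binding protein, stood at -0.43, Hnrnpa2b1, a splicing factor, at -0.51, Tia1, an RNA-binding protein of stress granules, at -0.74, and Eif2ak3, the kinase PERK, at -0.71, and each of these 4 was lowest in TT2 of all 15 lines. Snrpg, a core protein of spliceosomal ribonucleoproteins, stood at -0.38 and Eif4e3 at -0.98. The 1 distal member of the list, Rpl32, stood at 0.15. These lists were chosen with earlier results of these data known, and their medians stand beside -0.33 and 0.19 for all proximal and all distal members.

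Among the cell cycle and DNA repair genes all 6 proximal members were below 0 in TT2, with a median of -0.66, and TT2 was lowest for Mcm2, a subunit of the replicative helicase, at -0.6, for Xpc, which recognises damaged DNA, at -0.91, and for Mad2l1, a spindle checkpoint protein, at -0.8. Of the 11 distal members 8 were below 0, with a median of -0.049, while TT2 was highest for the repair genes Ogg1, at 0.24, and Rad52, at 0.25. Among the chromatin regulators all 7 proximal members were below 0, with a median of -0.43. Ezh2, the methyltransferase of Polycomb repressive complex 2, stood at -0.43 and Hdac11 at -1.17, both lowest in TT2. Of the 9 distal members 3 were below 0, and TT2 was highest for Rybp at 0.72, Setd5 at 0.75 and Brpf1 at 0.46. Among the Ras-MAPK genes Braf stood at -0.3 in the proximal part (0.012 against the lines of the same slide) and Rassf4 at -0.83 in the distal part.

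In other lists the TT2 medians differed from those of the segment that holds them. Of 9 genes in the pluripotency list 7 were placed on chromosome 6, and 5 were members: Phc1, Apobec1, Slc2a3, Ccnd2 and Tead4. These 5, all distal, had a TT2 median of -0.51, and 4 of them were below 0. TT2 was lowest for Tead4, a factor of the trophoblast lineage, at -0.82, and higher than the mean for Phc1, a Polycomb protein, at 0.42. The pluripotency genes Dppa3 and Gdf3 are on the chromosome but are no members, since they were well above background on 13 and 15 arrays. Their levels were 4.06 and 2.26 in TT2 and 3.64 and 2.36 in B6ES. Dppa3 was highest in TT2 of the 15 lines, with -7.5 to 4.03 in the others. Gdf3 read 0.5 to 2.74 in the other lines, so TT2 lay within their range. Of the 5 distal glucose metabolism members 4 were below 0, with a median of -0.47. These were Tpi1 at -0.52, Slc2a3, a glucose transporter, at -0.47, Eno2 at -1.01 and Gapdh at -0.01. The other, Ldhb, was above 0 and read 6.15 in TT2, 5.57 in B6ES and 5.55 in 20D17. Its mean levels were 3.93 in iHAC1-iPS, 5.74 in iHAC2-iPS and 6.86 in the iHAC-free lines. The proximal Hk2, a hexokinase, stood at -0.52. Against B6ES alone, Tpi1, Eno2 and Apobec1 were above 0. Of the pluripotency list, Slc2a3 read 5.43 in TT2 and 5.32 in B6ES, and Ccnd2 3.6 and 2.91, so both were also above B6ES. Phc1, at 4.82 and 4.96, and Tead4, at -1.79 and -1.26, were below it.

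The Hoxa cluster and the fibroblast genes also stood apart within the proximal part. The 5 detected Hoxa members of 12 listed had a TT2 median of 0.12, with 2 of 5 below 0. The values named here, Hoxa7 at 0.61 and Hoxa11 at 0.72, are above that median. The 8 proximal fibroblast and matrix members had a median of -0.004, with 4 of 8 below 0. Cav1, the coat protein of caveolae, stood at 0.57 and Flnc, a filamin, at 0.44, whereas Col1a2, a chain of type I collagen, stood at -0.63. The fibroblast markers had a median level of 1.99 in TT2, against 0.53 in B6ES, and their part in these values was not tested. Of the 6 proximal imprinted members 5 were below 0, with a median of -0.19. Sgce, which is imprinted next to Peg10, stood at -0.78, and Mest, another imprinted gene, at 0.52, while Copg2 beside it stood at -0.24. Against B6ES alone Sgce stood at 0.34.

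The proximal shift had a like size over the levels, base compositions and strands of the probes. When the members were split into 3 groups by mean level, from low to high, the proximal TT2 medians were -0.34, -0.36 and -0.3, over 197, 198 and 199 members. In 3 groups by GC content they were -0.35, -0.29 and -0.42. On the plus and minus strands they were -0.33 and -0.33. The distal medians were 0.18, 0.18 and 0.28 by level and 0.25, 0.2 and 0.02 by GC content, so the distal rise was small among the 78 members with the highest GC content. Probes of 1 gene gave like values: of 134 proximal genes with several members, 99 had all of them below 0, 15 all above and 20 some of each, and of 96 distal genes 20, 56 and 20.

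The detection filter kept probes of higher signal. On chromosome 6, 677 probes were well above background on no array and 666 on 1 to 15 arrays. The 69 probes that missed the filter on 1 array had a median level of -3.55, against -0.27 for the members, and 21 of them missed it in 2-B1, 8 in MEF and 1 in TT2. The 412 proximal probes that passed on some arrays had a TT2 median of -0.33 and a B6ES median of -0.25, and the 254 distal ones had -0.17 and -0.25, so among these dim probes the difference between both ES lines was smaller than among the members.

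The groups of iPS lines were compared next, by limma over 31411 probes detected above background on 1 array or more, with Benjamini-Hochberg adjustment over all of them. A probe is called at an adjusted p under 0.05 and at least 2-fold. The design had 4 lines per group of iPS lines made with a HAC, and these are separate clones within a group. Each iHAC-free line, however, came from an iHAC2-iPS clone. The fit pooled the spread within all groups, the ES lines among them, so the p-values measure that pooled spread between lines. The shares of members called are read beside the shares of all 19931 probes with the same detection. The iHAC1-iPS clones differed from both groups of iPS lines made with iHAC2. Of the 969 members, 91 were higher and 80 lower in iHAC1-iPS than in iHAC2-iPS, or 9.39% and 8.26%, against 7.56% and 8.36% of all probes. Against the iHAC-free lines 94 were higher and 85 lower, or 9.7% and 8.77%, against 7.53% and 8.93%. The markers of pluripotent cells were lower in 1-A3 and 1-D6, as given above, and their part in these calls was not tested.

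The iHAC1-iPS calls are given for each side of the TT2 boundary, and the difference between the sides was not tested. Against iHAC2-iPS, 59 proximal members (9.93%) were higher and 36 (6.06%) lower, and 32 distal members (8.53%) were higher and 44 (11.7%) lower, beside 7.56% and 8.36% of all probes. Against the iHAC-free lines, 65 proximal members (10.9%) were higher and 37 (6.23%) lower, and 29 distal members (7.73%) higher and 48 (12.8%) lower, beside 7.53% and 8.93% of all probes. The median difference was 0.15 proximal and -0.03 distal in the former comparison and 0.19 and 0.01 in the latter. Both comparisons share the iHAC1-iPS clones.

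Among the called members whose groups did not overlap, Vax2 had the largest increase in iHAC1-iPS over iHAC2-iPS. Its level was 2.93, 2.71, 2.5 and 2.9 in 1-A3, 1-B, 1-C3 and 1-D6, and -3.06, 1.45, -4.49 and -0.04 in 2-B1, 2-C6, 2-E and 2-N, a log2 difference of 4.29 ± 0.97 (SE) with a limma adjusted p of 0.0055. The iHAC-free lines read -3.01, -2.47, -3.3 and -2.75 and MEF -3.61. Tspan12, a tetraspanin of Norrin and Frizzled signalling, read 2.65, 2.17, 2.99 and 3.52 in the iHAC1-iPS clones and -0.98, 0.71, -0.9 and -2.8 in the iHAC2-iPS clones, a log2 difference of 3.82 ± 0.57 (SE) with a limma adjusted p of 0.000535. It read 1.21 in MEF. Hipk2, a kinase of the p53 pathway, read 3.91, 2.81, 2.88 and 3.63 in the iHAC1-iPS clones, 0.53, 2.01, -0.05 and -0.94 in the iHAC2-iPS clones and 3.3 in MEF. In these 3 genes every iHAC1-iPS clone was above every iHAC2-iPS clone, and for Hipk2 MEF lay within the iHAC1-iPS range. Reep1 and Lrmp were among the 5 largest increases against the iHAC-free lines, with log2 differences of 3.13 ± 0.49 and 5.28 ± 1.27 (SE).

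Rps4l had the largest decrease of such members in both comparisons. It read 1.42, 1.28, 1.54 and 2.29 in the iHAC1-iPS clones, 5.86, 5.05, 4.23 and 7.26 in the iHAC2-iPS clones, 6.92, 6.61, 7.03 and 6.88 in the iHAC-free lines and 4.11 in MEF. The log2 differences were -3.97 ± 0.49 and -5.23 ± 0.49 (SE), with limma adjusted p of 0.00022 and 3.0e-05. Every iHAC1-iPS clone lay below MEF. Pdk4, which inhibits pyruvate dehydrogenase, and Wipf3, an actin regulator, had log2 differences of -2.84 and -2.85 against iHAC2-iPS, and Pdk4 read -2.83, -2.67, -4.32 and -3.62 in the iHAC1-iPS clones and 0.05, -2.58, 0.13 and 0.29 in the iHAC2-iPS clones. Efcab12 and Rab19 had log2 differences of -2.83 and -2.74. Vwf read -3.91, -4.63, -5.13 and -3.71 in iHAC1-iPS and -0.36, 0.12, -0.81 and 0.03 in the iHAC-free lines. Tmem40, Acrbp, which binds proacrosin, and Ldhb, a lactate dehydrogenase subunit, had log2 differences of -3.62, -3.22 and -2.93 against the iHAC-free lines.

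**Figure D4:**
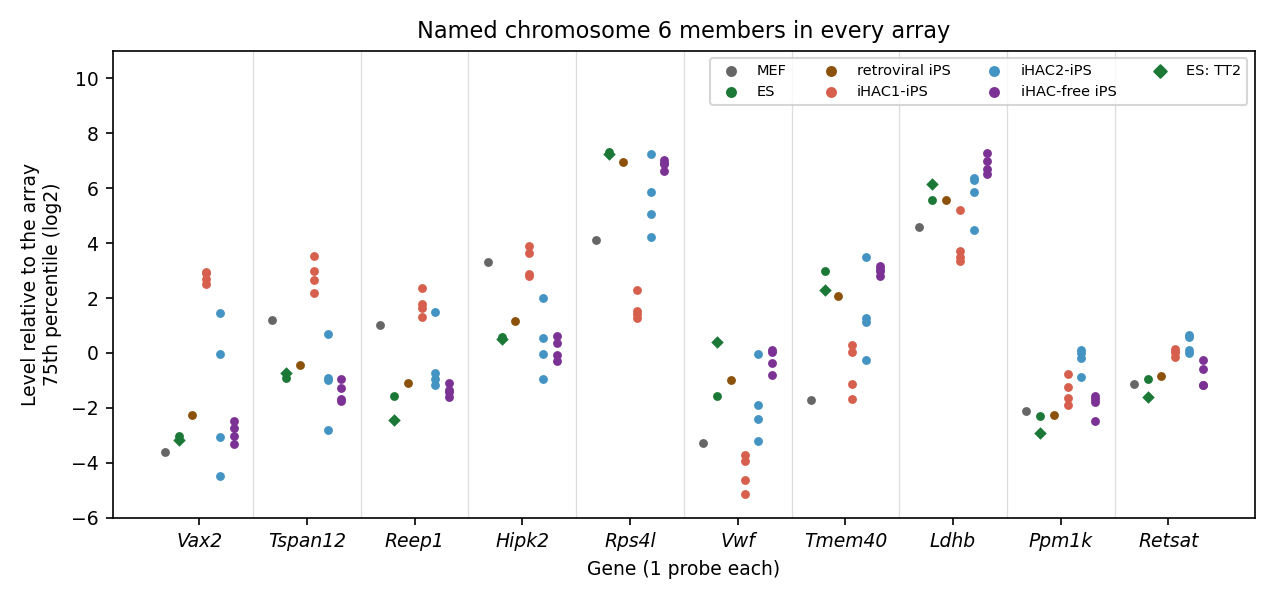
Levels relative to the array 75th percentile (log2, vertical axis) of 10 named chromosome 6 genes in all 16 arrays, coloured by group, with TT2 as a diamond. The iHAC1-iPS clones are the highest group for Vax2 and Tspan12, and for Reep1 apart from the clone 2-C6, and the lowest for Rps4l and Vwf, and the TT2 diamond is the lowest point for Reep1, Ppm1k and Retsat.

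The gene lists gave counts of 0 to 3 called members in either direction, beside 7.56% higher and 8.36% lower among all probes, and nothing is read from counts of this size. Against iHAC2-iPS, the chromatin list had 1 of 16 higher and 3 lower, the cell cycle and DNA repair list 2 of 17 higher, Hipk2 and Ccnd2, and 1 lower, the glucose list 0 of 7 higher and 2 lower, and the pluripotency list 1 of 5 higher and 2 lower. Tet3, which oxidises 5-methylcytosine, rose by 2.19 on the log2 scale and Ccnd2, cyclin D2, by 1.78. The chromatin genes Trim24, Phc1 and Mbd4 had log2 differences of -1.44, -1.46 and -1.08, and Gadd45a, a stress gene, of -1.19. The differences of Slc2a3 and Ldhb were -1.5 and -1.81. The Hoxa list had 1 of 5 higher, Hoxa11, by 1.03, and 1 lower. The fibroblast and matrix list had 1 of 10 higher, Ptn, the imprinted list 1 of 6 higher, Pon2, the ribosomal and translation list 1 of 7 higher, Eif4e3, and the Ras-MAPK list 1 of 6 lower, Rassf4. All these changes passed the limma test, adjusted over all probes.

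Few probes were called between the lines with and without iHAC2, on chromosome 6 and over all probes alike. With 4 lines per group, a probe that was not called may still differ. Between iHAC2-iPS and the iHAC-free lines 4 members were higher and 1 lower in iHAC2-iPS, or 0.413% and 0.103%, against 0.191% and 0.401% of all probes. Each iHAC-free line was also set against the iHAC2 clone from which it came, with the origin as a replicate block. In that fit limma called 0 members, beside 139 of all 31411 probes, and 162 members had an unadjusted p under 0.05. The 5 members called in the main fit were 2 probes of Ppm1k and 1 each of Retsat, Il17rc and Magi1. The last 2 of these genes were named after their values had been seen. Ppm1k read 0.11, -0.18, 0 and -0.89 in the iHAC2-iPS clones and -2.46, -1.79, -1.56 and -1.67 in the iHAC-free lines, a log2 difference of 1.63 ± 0.3 (SE) with a limma adjusted p of 0.028. Retsat, in the same order, read 0.01, 0.1, 0.59 and 0.65 against -1.17, -0.24, -1.16 and -0.58, with a log2 difference of 1.12 ± 0.24 (SE) and a limma adjusted p of 0.049. Il17rc, an interleukin receptor chain, was higher in iHAC2-iPS by 1.31 and Magi1, a scaffold protein of cell junctions, differed by -1.43, with limma adjusted p of 0.044 and 0.029. The other Magi1 members were not called. The brightest of them read 2.72, 2.69, 2.56 and 2.84 in the iHAC2-iPS clones and 3.2, 3.05, 3.16 and 3.13 in the iHAC-free lines, a smaller difference. With slide as a block 3 members were called, beside 178 of all 31411 probes. The median difference over all 969 members was 0.039 over all slides, 0.046 within slide 3 and 0.031 within slide 4. The calls depended on single lines, on chromosome 6 as over all 31411 probes. Without 2-N 26 members were called, beside 982 of all probes, without 2-B1 3 beside 165 and without 2-E 1 beside 65. Without any 1 of the iHAC-free lines limma called 0 members, beside 40 to 55 of all probes, and 131 to 155 members had an unadjusted p under 0.05.

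The comparisons with ES hold TT2 and so its proximal and distal differences. Against both ES lines, 95 members were higher and 47 lower in iHAC1-iPS, or 9.8% and 4.85%, against 6.89% and 5.9% of all probes. Of these, 72 of the higher and 13 of the lower members were proximal, and 23 and 34 were distal. Without TT2, that is with B6ES as the only ES array and its spread taken from the other groups, 62 were higher and 35 lower, or 6.4% and 3.61%, against 5.92% and 4.42% of all probes, and the split was 44 and 17 proximal and 18 and 18 distal. Of the 142 called members 79 were also called without TT2. The median over proximal members was 0.41 against TT2 and 0.053 against B6ES, and over distal members -0.2 against TT2 and -0.13 against B6ES. With slide as a block 59 members were called, beside 2441 of all 31411 probes. The median difference over all 969 members was 0.096 over all arrays and 0.11 between 1-D6 and the ES lines within slide 2. The genes with the largest differences were mostly those given above: Vax2, at 5.85 ± 1.19 (SE), Lrmp, Reep1, Tspan12 and Eif4e3 among the increases and Rps4l, at -5.65 ± 0.6 (SE), Vwf and Tmem40 among the decreases.

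In iHAC2-iPS 42 members were higher and 26 lower than in both ES lines, or 4.33% and 2.68%, against 3.38% and 3.12% of all probes. Without TT2 only 7 were higher and 2 lower, against 0.411% and 0.517% of all probes, and 8 of these 9 were among the 68. The count was 113 without 2-C6, 42 without 2-E and 0 by limma when the fit held these groups only, where 172 had an unadjusted p under 0.05. Over all 31411 probes the counts were 3730, 1521 and 19, beside 2134 with all arrays and groups. The proximal median was 0.31 against TT2 and -0.02 against B6ES. Ghrl rose by 2.84 ± 0.4 (SE), from -4.71 in B6ES and -4.87 in TT2 to -1.43, -2.86, -1.8 and -1.74 in the iHAC2-iPS clones. Rassf4, Nat8 and Scnn1a, an epithelial sodium channel subunit, had log2 differences of 2.2, 2.13 and 2. The difference was -3.83 ± 0.65 (SE) for Tatdn2, -2.36 for Repin1, -2.01 for Gata2, a transcription factor of blood progenitors, and -1.36 for Irak2, a kinase of interleukin-1 signalling. Among the listed genes Kdm7a, Eno2 and Apobec1 rose in both iHAC1-iPS and iHAC2-iPS against ES, and both comparisons share the ES arrays.

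The number of calls of the iHAC-free lines against ES depended on the fit. Against both ES lines 1 member was higher and 2 were lower, or 0.103% and 0.206%, against 0.14% and 0.14% of all probes, and without TT2 limma called 0 members, with 150 at an unadjusted p under 0.05, against 0.0151% and 0.0301% of all probes. With both ES lines the count was 17 over probes detected on all arrays, 21 with slide as a random block, 7 with normexp background correction and 0 by limma when the fit held these groups only, where 304 had an unadjusted p under 0.05. Over all probes the counts were 278 of 19931 in the first of these fits, and 696, 134 and 14 of 31411 in the others. Med21, a subunit of the Mediator complex, read 1.04, 0.88, 0.88 and 0.88 in the iHAC-free lines, 1.8 in B6ES and 2.35 in TT2, a log2 difference of -1.16 ± 0.16 (SE). The transcript of the Rosa26 locus, Gt(ROSA)26Sor, read -2.69, -3.18, -2.74 and -2.99 in these lines, -1.75 in B6ES and -1.74 in TT2, a log2 difference of -1.15 ± 0.19 (SE). The third was a probe for a transcript without a gene symbol in the files. The proximal median of the iHAC-free lines was 0.25 against TT2 and -0.075 against B6ES.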

How the data were processed

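Total RNA of 16 samples (1 MEF, 15 ES and iPS lines) was labelled with Cy3 from 500 ng and hybridised to 1-colour Agilent arrays. The deposited scanner files of Feature Extraction 10.7.1.1 and 10.7.3.1 hold a processed signal intensity per spot, already background-subtracted by the authors' software. The deposited value table holds log2 values that the authors normalized in GeneSpring GX, found here to be each array shifted to its 75th percentile and each probe centred on its median. Per the file headers, probes are placed on mm9. From the intensity the log2 was taken and the 75th percentile of each array subtracted, control spots were left out and spots of 1 probe averaged. The probe's placement on the chromosome was used for windows of 5 Mb and for the change point, which required 20 members on either side. Gene symbols were updated through RefSeq accessions for 793 of 969 members and kept from the array file otherwise.

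Groups were compared by limma 3.58.1 in R 4.3.3 over 6 groups (called: adjusted p under 0.05, at least 2-fold). In simulated data 78.5% of 200 probes changed by 2 on the log2 scale were recovered in the comparison of iHAC2-iPS with iHAC-free iPS over 31383 probes. Lines were paired by clone of origin as the study's methods give it: deviations of same-origin lines correlated at -0.1, -0.48, -0.054 and 0.22 for B, C, E and N. The named genes were the 10 largest falls and 5 largest rises of TT2, 5 members on either side of the boundary, the 5 largest changes in either direction among called members with groups that did not overlap, and the listed genes. Away from the boundary, a gene with several members is given by the one with the highest mean, except Il17rc and Magi1, which are given by their called probe. Alternatives covered background correction, scaling, filters, reference lines, blocks and leaving out each array. The members and lists were chosen with earlier results of these data known. The number of arrays limits the precision. Some members of the gene lists are counted but not reported here by name.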

Additional observations from a re-analysis of the deposited data

Results flagged for a closer look

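Within groups of 4 clones, a line was marked where its gap to the nearest other line passed the critical value of Dixon's test for 4 values. Of 258 such groups over named genes and segment medians 15 were marked, and chance alone marks about 1 in 20. No segment median was among them. In the iHAC1-iPS clones, 1-B stood apart for Tatdn2 (-2.22 against -0.79 to -0.51), Foxp1 (1.18 against 0.88 to 0.92) and Eif2ak3 (-0.34 against -0.46 to -0.45), and 1-A3 for Ogg1 (0.88 against 0.95 to 0.96). In the iHAC2-iPS clones, 2-C6 stood apart for Reep1 (1.48 against -1.15 to -0.71), Gapdh (7.33 against 7.83 to 7.88) and Pdk4 (-2.58 against 0.05 to 0.29), 2-E for Hoxa11 (-4.68 against -3.46 to -3.27) and 2-N for Phc1 (5.07 against 4.59 to 4.64). In the iHAC-free lines, F-B1 stood apart for C030015A19Rik (-4.22 against -3.12 to -2.94), Tead4 (-1.63 against -1.29 to -1.24) and Med21 (1.04 against 0.88 to 0.88), F-C5 for Eogt (-0.23 against -0.69 to -0.62), F-E4 for Tia1 (1.32 against 0.89 to 0.92), and F-N7 for Pon2 (-2.67 against -2.55 to -2.53). All values are levels relative to the 75th percentile of the array on the log2 scale. For Reep1 the level of 2-C6 lay within the range of the iHAC1-iPS clones.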

How the results depend on the processing

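The TT2 boundary lay within 5 Mb of its main position under every alternative run: leaving out each other line placed it between 95.5 and 99.6 Mb. Of 27 settings, the main one included, 15 kept the main position and 12 gave another, 9 of them just after 95519704. Those 9 included the median of the other lines, the reference without iHAC1-iPS clones and B6ES alone. Leaving out each line gave -0.34 to -0.32 for the proximal median, 0.19 to 0.2 for the distal median, and 0.18 to 0.19 for the largest proximal median of another line. The distal median was 0.12 with normexp background correction, 0.12 with probes detected on at least 1 array, 0.25 with members above the median level, 0.16 without the iHAC1-iPS clones in the reference and 0.12 against B6ES alone. The middle of 3 segments, chosen after seeing the data, had -0.47. With probes detected on at least 1 array the largest proximal median of another line was -0.16, in F-B1. A change of sign is listed here only for named members whose TT2 difference was beyond 1 SD of the other lines. Against B6ES alone the TT2 differences of Foxp1, Shq1, Ppp4r2, Tpi1, Eno2, Sgce and Apobec1 turned to -0.074, -0.0032, -0.014, 0.23, 0.95, 0.34 and 0.67. Against the lines of the same slide, an alternative chosen after seeing the data, that of Braf turned to 0.012. Members with differences within 1 SD, such as Rps4l and Eif4e3, also changed sign against B6ES. The cause was not tested.

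The counts below are of the 969 members, and the counts over all probes changed with the setting as well. Normexp gave 98 calls for iHAC1-iPS against iHAC2-iPS, 119 against iHAC-free iPS and 7 for iHAC-free iPS against ES, beside 2614, 2980 and 134 over all 31411 probes. Leaving out each array gave 141 to 191, 148 to 193, 0 to 26 (iHAC2-iPS against iHAC-free iPS), 82 to 148 (iHAC1-iPS against ES), 9 to 113 (iHAC2-iPS against ES) and 0 to 2 (iHAC-free iPS against ES). For iHAC2-iPS against iHAC-free iPS the replicate block by line of origin gave 0 (limma; 162 at an unadjusted p under 0.05), the slide block 3, the filter for all arrays 9, only the compared groups 1 and 1 probe per gene 2. For iHAC1-iPS against ES the slide block gave 59. For iHAC2-iPS against ES only the compared groups gave 0 (172 at an unadjusted p under 0.05) and 1 probe per gene 42. For iHAC-free iPS against ES the filter for all arrays gave 17, only the compared groups 0 by limma (304 at an unadjusted p under 0.05) and a random slide block 21. Over all probes these were 278 of 19931, and 14 and 696 of 31411. Of 1650 alternatives for the calls of named members 1378 stayed called, 272 did not and 0 reversed. Dim probes near background limit what small differences show.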
